A study of Mus musculus with 230 samples.

Results

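The metabotropic glutamate receptors are G protein-coupled receptors through which glutamate modulates synapses. Group I receptors, of which Grm5 (mGluR5) is one, lie mainly on postsynaptic membranes and act through Gq and phospholipase C. Group II (Grm2 and Grm3) and group III (Grm4, Grm7 and Grm8) receptors act through Gi/o, lower cAMP, and, apart from the Grm3 product, which is also found on astrocytes, lie mostly on presynaptic terminals, where they reduce transmitter release. The 6 genes described here, Grm2, Grm3, Grm4, Grm5, Grm7 and Grm8, were the listed members of the family, found by symbol among the 43346 genes of a count table for 6 brain regions of mice, and all 6 passed the filter on low counts in every fit. Between pairs of regions 84 of 90 tests of these genes were called, where 58.5% to 83.8% of all genes were, and within single regions 0 of 252 tests of cocaine were called, where at most 0.00393% of all tests were.

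RNA had been sequenced in 230 libraries from 45 male C57BL/6J mice, with 1 library per region and mouse and 4 to 6 regions per mouse. The striatum was sampled in its dorsal part (CPu, 42 libraries) and in the nucleus accumbens (NAc, 39), and the cortex in its prefrontal area (PFC, 41). Ventral hippocampus (vHipp) gave 39 libraries, the amygdala's basolateral nuclei (BLA) 38, and the ventral tegmental area of the midbrain (VTA) 31. The groups of the first stage were killed 24 h into withdrawal with no injection on their labels, after cocaine self-administration (C24, 8 mice) or saline self-administration (S24, 8 mice). The other groups reached 30 d of withdrawal and were killed 1 h after an injection: cocaine after cocaine (CC, 7 mice), cocaine after saline (SC, 8 mice), saline after cocaine (CS, 6 mice) and saline after saline (SS, 8 mice). All groups had thus been through self-administration training, and a naive group is not among the samples used here.

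Library totals ran from 11866570 to 42135683 counts. The region labels fitted their markers on average. In the VTA, 5 dopamine neuron markers summed to 3386 CPM (counts scaled to library size), against 17.9 to 39.4 CPM in the other regions. The 6 striatal projection neuron markers summed to 5288 CPM (CPu) and 2813 CPM (NAc), against 61.6 to 636 CPM elsewhere. The 5 markers of cortical, amygdalar and hippocampal excitatory neurons summed to 1969.8 CPM (PFC), 1662 CPM (vHipp) and 934 CPM (BLA), against 16.6 to 65.04 CPM elsewhere. Single libraries departed from these averages. Dopamine neuron markers reached 360.4 CPM in a vHipp library and 158 CPM in a NAc library. Excitatory neuron markers reached 621 CPM in a NAc library, above the lowest BLA library at 330 CPM. Striatal markers in single BLA libraries spanned 134 to 1998 CPM, and 3 dentate granule cell markers in single vHipp libraries 20.2 to 405 CPM. In whole tissue, fewer cells of a type and less RNA per cell cannot be told apart. By a tissue marker score, 15 libraries stood apart, 7 of them from the vHipp.

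On mm10, Grm2 lies on chromosome 9 (106643095 to 106656082, minus strand) with 4894 bases of annotated exon, and Grm3 on chromosome 5 (9485541 to 9725170, minus strand) with 3049. Grm4 lies on chromosome 17 (27422387 to 27521403, minus strand) with 5977 exon bases and Grm5 on chromosome 7 (87584168 to 88134907, plus strand) with 10247. Grm7 (110645581 to 111567230, plus strand, 5886 exon bases) and Grm8 (27275119 to 28135178, minus strand, 9898 exon bases) are both on chromosome 6. Antisense genes overlapped 470 exon bases of Grm2 (Gm28111, with 902 counts in all libraries against 139539 of Grm2) and 130 exon bases of Grm7 (Gm20387, with 11804 counts against 339361). Whether the counting used strand is not given in the sources used here, so reads in those stretches cannot be assigned.

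The 250 bases before the RefSeq transcription start of the group II pair are shown because these genes, the members of 1 receptor group, ranked the 6 regions differently. RefSeq gave a promoter for 4 of the 6 genes on GRCm38.p6. Capitals mark the GC box letters GGGCGG, or CCGCCC on the other strand, with overlapping matches counted once each. The Grm2 window (chr9:106656110-106656359, minus strand) held 3 matches and 71.2% G and C, and the Grm3 window (chr5:9725353-9725602, minus strand) held 1 match and 62.4%. Of 32851 promoters of that length, 32.7% held at least 1 match and 8.47% at least 3.
Grm2: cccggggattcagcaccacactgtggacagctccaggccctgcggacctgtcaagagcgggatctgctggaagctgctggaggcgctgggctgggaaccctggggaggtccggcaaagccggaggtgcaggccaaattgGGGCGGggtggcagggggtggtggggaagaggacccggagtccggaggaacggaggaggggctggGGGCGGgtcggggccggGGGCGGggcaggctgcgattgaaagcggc
Grm3: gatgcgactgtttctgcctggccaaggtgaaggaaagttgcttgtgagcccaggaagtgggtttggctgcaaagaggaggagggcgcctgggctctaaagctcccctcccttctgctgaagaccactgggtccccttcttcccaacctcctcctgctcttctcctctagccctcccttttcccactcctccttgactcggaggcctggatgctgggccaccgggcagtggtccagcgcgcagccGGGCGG

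Grm5, the group I gene, was highest in the striatum. It averaged 450.4 ± 67.2 CPM in the CPu (SD over the libraries counted above, here as in what follows), 361 ± 65.97 in the NAc, 296 ± 51.4 in the vHipp, 237 ± 48.6 in the BLA, 232 ± 36.1 in the PFC and 92.1 ± 9.13 in the VTA. The VTA libraries, at 72.8 to 116 CPM, lay below every library of the other regions, the lowest of which had 142 CPM. The BLA and the PFC were neighbours in this order that did not pass the test (log2 difference 0.02, SE 0.0572, adjusted p = 0.755), and all other neighbours did, by 0.28 (NAc over vHipp) to 1.32 (PFC over VTA). The order had the CPu highest and the VTA lowest in 6 of 6 conditions.

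Grm2, whose receptor sits on glutamatergic terminals, including the mossy fibres of dentate granule cells, spanned the widest range. It averaged 53.5 ± 12.6 CPM in the PFC and 47.0 ± 13.8 in the BLA, which did not differ past the threshold (log2 difference of PFC over BLA 0.21, SE 0.142, adjusted p = 0.189). The vHipp followed at 40.6 ± 32.5 CPM with a range of 1.33 to 111.3, the VTA at 6.91 ± 1.73, the NAc at 3.65 ± 0.946 and the CPu at 1.43 ± 0.662 CPM. The CPu was the lowest in 6 of 6 conditions and 37.4-fold below the PFC, which was the highest in 5 of 6.

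Grm3, the other group II gene, had its highest levels where Grm2 had its lowest. It averaged 98.1 ± 14.9 CPM in the CPu and 89.6 ± 12.8 in the NAc, followed by the PFC (70.6 ± 9.30 CPM), the BLA (50.01 ± 11.7 CPM), the VTA (42.4 ± 5.58 CPM) and the vHipp (34.3 ± 6.93 CPM). All neighbours in this order were called, the closest being the CPu over the NAc (log2 difference 0.12, SE 0.0503, adjusted p = 0.0285), a call lost under scaling by library totals alone (0.02, adjusted p = 0.715). The range between the highest and the lowest region was 2.86-fold.

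Among group III genes, Grm4 was a striatal transcript here, and its receptor is known from the terminals of striatal projection neurons in the pallidum. It averaged 113.2 ± 14.4 CPM in the CPu and 95.7 ± 15.3 in the NAc, against 36.2 ± 13.1 in the BLA, 33.8 ± 5.06 in the VTA, 22.0 ± 5.17 in the PFC and 10.9 ± 4.84 in the vHipp. No CPu or NAc library was below 66.4 CPM, and of the other regions' libraries only the highest BLA one, at 81.0 CPM, reached into that range, with the next BLA library at 57.67 CPM. The BLA and the VTA did not differ past the threshold (log2 difference 0.03, SE 0.0722, adjusted p = 0.747).

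Grm8 went the other way and, like Grm2, was highest in the PFC and the BLA, but unlike Grm2 it was lower in the vHipp than in the VTA. It averaged 30.5 ± 5.18 CPM in the PFC and 28.4 ± 5.32 in the BLA, with no called difference between them (log2 difference of PFC over BLA 0.10, SE 0.0849, adjusted p = 0.294), then 11.6 ± 2.25 in the VTA, 6.07 ± 4.08 in the vHipp, 6.01 ± 1.22 in the CPu and 3.98 ± 1.92 in the NAc. The vHipp libraries spread from 0.592 to 16.5 CPM. The CPu exceeded the vHipp on the log scale (0.29, SE 0.133, adjusted p = 0.0366) although their means were alike, and this call was lost without the filter on low counts (adjusted p = 0.0711), with library totals (0.111) and with the mouse as a fixed term (0.573).

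Grm7, which encodes a receptor of presynaptic active zones across the brain, had the lowest coefficient of variation of the 6 genes in 5 regions (8.43% to 12.4%) and 13.5% in the VTA. It averaged 83.2 ± 10.02 CPM in the NAc, 71.3 ± 6.83 in the CPu, 70.7 ± 7.90 in the BLA, 57.6 ± 7.13 in the vHipp, 55.02 ± 4.64 in the PFC and 32.8 ± 4.41 in the VTA. The CPu and the BLA (log2 difference of BLA over CPu -0.02, SE 0.0358, adjusted p = 0.663) and the PFC and the vHipp (log2 difference of PFC over vHipp -0.05, SE 0.0362, adjusted p = 0.253) did not pass the test. The NAc was the highest and the VTA the lowest in 6 of 6 conditions.

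**Figure D1:**
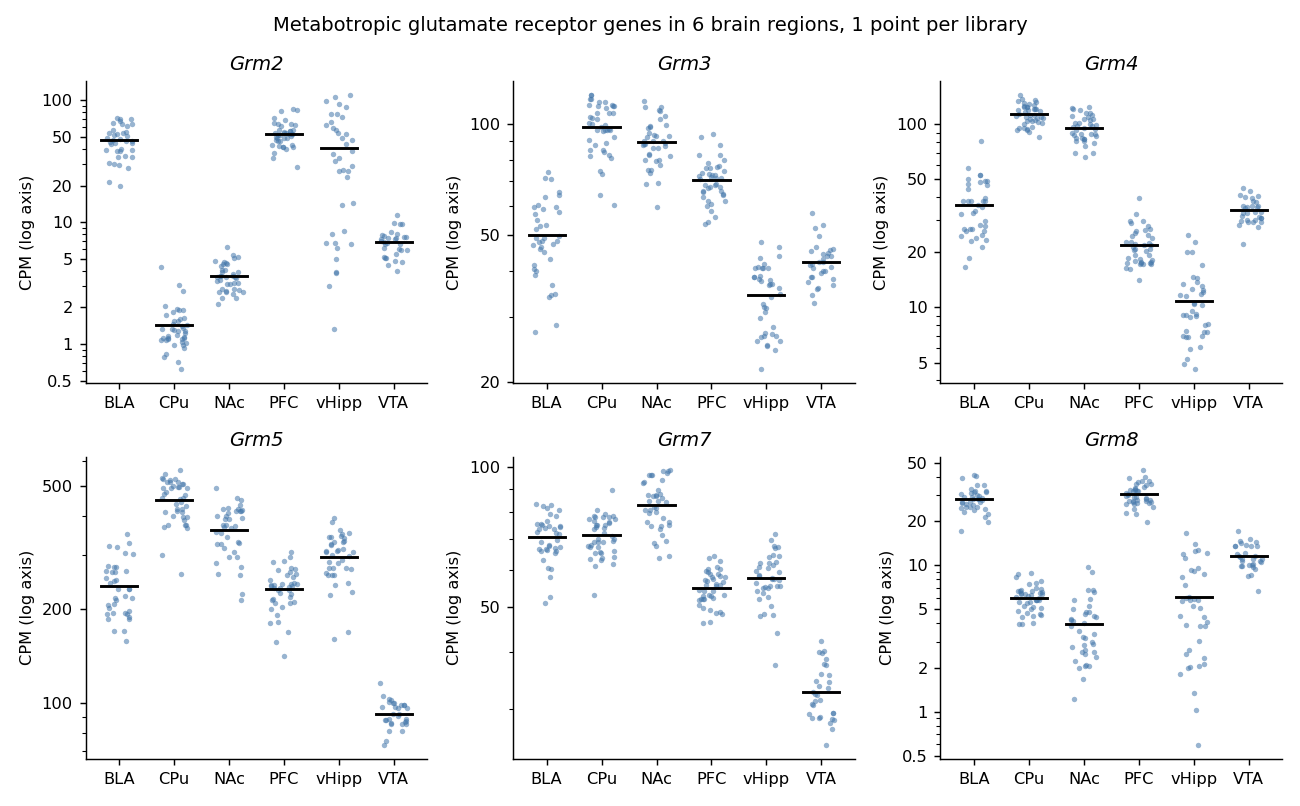
CPM (log axis, a separate scale per gene) of the 6 receptor genes in each of 230 libraries, by region; bars are means. Grm3, Grm4 and Grm5 peak in the CPu, Grm2 and Grm8 in the PFC and the BLA, and Grm2 in the vHipp spreads from 1.33 to 111.3 CPM.

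The tests between regions came from 1 limma model of all libraries, with the mouse as a block, and a call is a Benjamini-Hochberg adjusted p under 0.05 over 18927 genes. Most genes differ between regions at this depth, so the calls are not particular to the receptors. The share of all genes called was 76.6% for BLA against CPu, 65.5% for BLA against NAc, 64.1% for BLA against PFC, 63.8% for BLA against vHipp and 79.8% for BLA against VTA. It was 58.5% for CPu against NAc, 76.6% for CPu against PFC, 79.2% for CPu against vHipp and 83.8% for CPu against VTA. It was 73.6% for NAc against PFC, 75.4% for NAc against vHipp, 82.3% for NAc against VTA, 63.4% for PFC against vHipp, 79.7% for PFC against VTA and 79.5% for vHipp against VTA. All 15 pairs were called for Grm3, 14 each for Grm2, Grm4, Grm5 and Grm8, and 13 for Grm7. Between BLA and PFC, 3 of the 6 members were not called (Grm2, Grm5 and Grm8), the region pair with the most such members.

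Levels of different genes were compared only per kilobase of annotated exon. On the mean CPM per kilobase, Grm5 led in the CPu (43.96), the NAc (35.2), the vHipp (28.8) and the BLA (23.1), and Grm3 led in the PFC (23.2 against 22.6 for Grm5) and the VTA (13.9 against 8.99 for Grm5). Grm8 came last in 5 regions, and Grm2 came last in the CPu (0.293 CPM per kilobase against 0.607 for Grm8). The order of the genes was not tested, and the leading means in the PFC were close. Like the sums and shares that follow, it rests on all annotated exon bases, not on the transcripts expressed in each region. The summed level of the 6 genes was 108 CPM per kilobase in the CPu and 95.9 in the NAc, against 36.7 in the VTA.

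The group II pair supplied 46.8% ± 3.63 of that sum in the PFC and 41.7% ± 2.07 in the VTA (SD over 41 and 31 libraries), against 30.0% ± 2.46 in the CPu. It was also the largest of the 3 groups in the BLA, with 37.3% ± 3.39, against 32.8% ± 3.48 for Grm5 and 29.9% ± 2.52 for group III. Grm5 supplied 48.4% ± 8.70 in the vHipp and 40.6% ± 3.28 in the CPu, against 24.6% ± 1.91 in the VTA. The 3 group III genes supplied 33.8% ± 2.20 in the VTA and 32.0% ± 2.74 in the NAc, against 20.4% ± 2.28 in the vHipp and 22.2% ± 1.596 in the PFC. In the VTA group II exceeded Grm5 in all libraries, since the lowest group II share was 38.2% and the highest Grm5 share 30.2%.

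**Figure D2:**
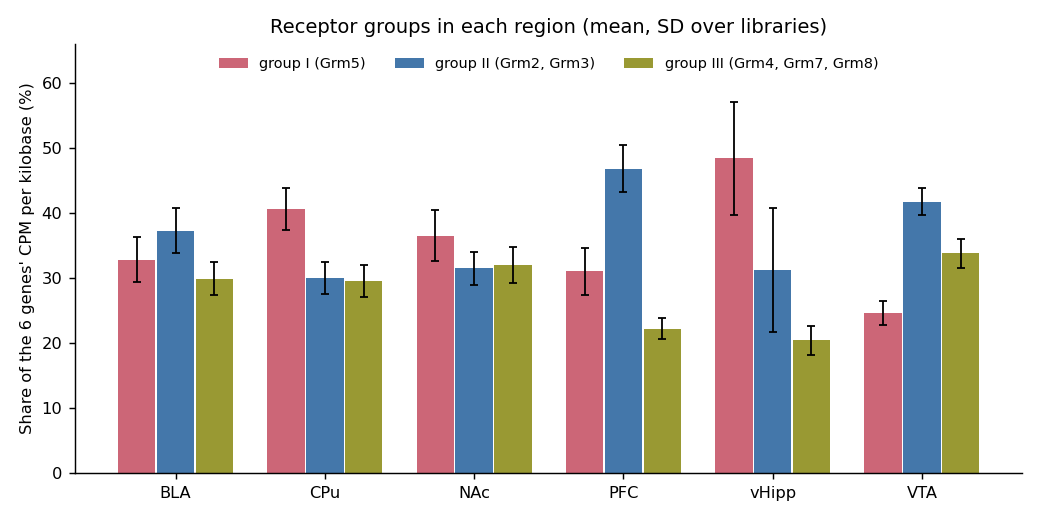
Share of the summed CPM per kilobase of exon held by group I (Grm5), group II (Grm2 and Grm3) and group III (Grm4, Grm7 and Grm8) in each region; bars are means and whiskers SD over libraries. Group II is the largest share in the PFC (46.8%), the VTA (41.7%) and the BLA (37.3%), and Grm5 the largest in the vHipp (48.4%), the CPu (40.6%) and the NAc (36.5%).

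Cocaine was compared in 7 ways: 24 h after self-administration (C24 against S24), at 30 d after a saline injection (CS against SS), after a cocaine injection in saline mice (SC against SS), in cocaine mice given cocaine (CC against SS, CC against CS and CC against SC), and as the interaction, the difference between CC minus CS and SC minus SS. Of the 252 tests of the 6 genes in single regions by edgeR, 0 were called, with 6 at an unadjusted p under 0.05 and a smallest adjusted p of 0.396. The background was as bare. Over genes and regions, edgeR called 0.000983% of tests in C24 against S24, 0% in CS against SS, 0.00393% in SC against SS, 0% in CC against SS, 0% in CC against CS, 0.00393% in CC against SC and 0.000983% in the interaction. The 6 contrasts at 30 d share libraries of SS, CS, SC or CC, so their values are not independent of each other.

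The member and region pairs with the smallest unadjusted p are given as values only. Grm8 in the BLA had 25.8 ± 5.03 CPM in CS (n = 5) and 33.1 ± 5.21 CPM in SS (n = 7), a log2 difference of -0.35 (SE 0.132) that did not pass (adjusted p = 1.00). Grm3 in the PFC had 67.0 ± 6.30 CPM in SC and 78.7 ± 7.46 CPM in SS (n = 7 each), with -0.23 (SE 0.0975), and 6 of 7 SC libraries were below the lowest SS library (adjusted p = 1.00). Grm5 in the VTA had 99.6 ± 10.3 CPM in SC (n = 5) and 86.8 ± 8.51 CPM in SS (n = 6), with 0.20 (SE 0.0791, adjusted p = 0.906). In C24 against S24 the smallest unadjusted p belonged to Grm7 in the CPu, with C24 at 74.9 ± 7.42 CPM and S24 at 68.0 ± 5.43 CPM (n = 8 each, log2 difference 0.14, SE 0.0707, adjusted p = 0.888). Grm7 in the vHipp had 50.4 ± 8.16 CPM in CC (n = 5) and 59.0 ± 7.10 CPM in SC (n = 7), with -0.22 (SE 0.0997, adjusted p = 1.00).

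The other pairs among the 3 smallest p-values of each contrast moved by less than a log2 unit, apart from Grm2 in the vHipp. In C24 against S24 they were Grm8 in the PFC (28.3 CPM in C24 and 33.1 CPM in S24) and Grm3 in the VTA (38.2 CPM in C24 and 43.2 CPM in S24). In CS against SS they were Grm7 in the BLA (67.8 CPM in CS and 76.9 CPM in SS) and Grm5 in the vHipp (317 CPM in CS and 264 CPM in SS), and in SC against SS Grm8 in the PFC (28.6 CPM in SC and 33.3 CPM in SS). For CC, Grm7 had 77.2 CPM in CC and 86.4 CPM in SS in the NAc, and 50.4 CPM in CC, against 57.9 CPM in CS and 56.7 CPM in SS, in the vHipp. Grm8 in the BLA had 30.2 CPM in CC and 25.8 CPM in CS, Grm2 in the PFC 50.8 CPM in CC, against 43.6 CPM in CS and 43.3 CPM in SC, and Grm5 in the CPu 495 CPM in CC and 424 CPM in SC. The interaction was 0.41 for Grm2 in the PFC (SE 0.177), 0.40 for Grm8 in the BLA (SE 0.181) and 0.32 for Grm8 in the PFC (SE 0.171). All of these values stayed short of the threshold, with adjusted p-values of 0.396 to 1.00.

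Averaged over the 6 regions, the intervals of the cocaine effects were narrow for some members and wide for others. In limma, 0 of 42 tests were called and 2 had an unadjusted p under 0.05: Grm3 in SC against SS (-0.12, SE 0.0573, adjusted p = 0.906) and Grm7 in CC against SC (-0.08, SE 0.0413, adjusted p = 0.454). For C24 against S24, the 95% interval of the log2 difference was -0.08 to 0.07 for Grm7, -0.12 to 0.10 for Grm3, -0.13 to 0.11 for Grm5 and -0.15 to 0.14 for Grm4, but -0.23 to 0.25 for Grm8 and -0.38 to 0.55 for Grm2. For CS against SS, it was -0.93 to 0.15 for Grm2, -0.40 to 0.14 for Grm8, -0.19 to 0.12 for Grm4, -0.18 to 0.06 for Grm3, -0.08 to 0.19 for Grm5 and -0.09 to 0.08 for Grm7. The share of all genes called was 0.851% in C24 against S24, 0.0581% in CS against SS, 0.111% in SC against SS, 0.0317% in CC against SS, 0% in CC against CS, 0.306% in CC against SC and 0.0423% in the interaction.

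**Figure D3:**
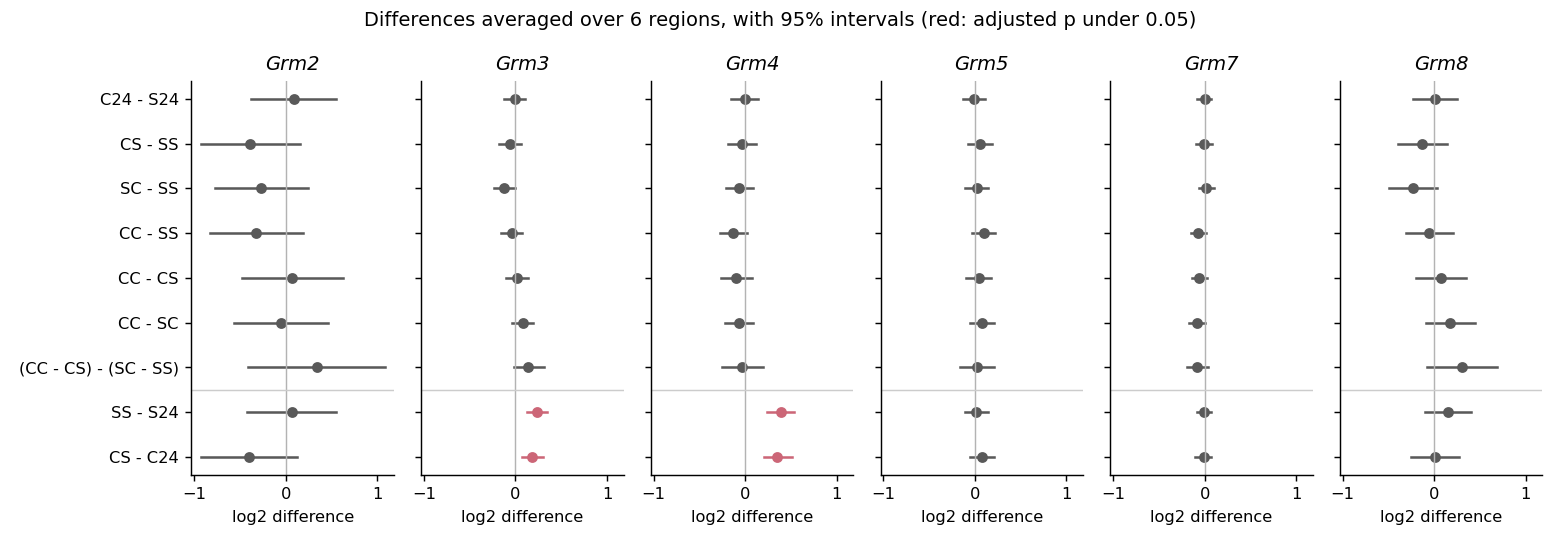
Log2 differences averaged over the 6 regions for each receptor gene (points) with 95% intervals (lines) for the 7 cocaine contrasts and, under the grey line, the 30 d groups minus their 24 h counterparts; red marks an adjusted p under 0.05 in limma. Grm3 (0.23 and 0.18) and Grm4 (0.39 and 0.35) are red in both of the lower rows, and the widest intervals belong to Grm2.

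The largest cocaine differences in size were those of Grm2 in the vHipp, and none was called. Grm2 there ran from 3.85 to 78.0 CPM in CS with a median of 16.6 CPM (n = 6), and from 29.0 to 111.3 CPM in SS with a median of 65.5 CPM (n = 6), a log2 difference of -1.43 with an SE of 0.817 (adjusted p = 0.399). In SC it ran from 4.98 to 66.4 CPM with a median of 8.45 CPM (n = 7), with a log2 difference from SS of -1.23 (SE 0.774, adjusted p = 0.602), and CC had 1.33, 26.6, 31.8, 38.1 and 43.8 CPM (-1.28 against SS, SE 0.865, adjusted p = 0.871). The groups overlapped, and the dentate granule cell markers moved with them: their sum averaged 107 CPM in CS, 118 CPM in SC and 177 CPM in CC, against 272 CPM in SS (26.6 to 309.7, 20.2 to 379, 30.7 to 284 and 162.2 to 405 CPM in the same order), and their median log2 difference was -1.45 in CS, -1.42 in SC and -0.68 in CC, with 0 of 3 called in each. Markers of choroid plexus and ependyma also differed, with sums of 13.4 to 1395.9 CPM in CS, 14.9 to 1257.5 CPM in SC and 13.4 to 673.6 CPM in CC, against 13.3 to 27.8 CPM in SS, and 0 of 6 called in each. The libraries of CS, SC and CC with the highest sums (Hipp-055, Hipp-043 and Hipp-053) had 3.85, 8.45 and 1.33 CPM of Grm2. The part of the dentate and choroid plexus markers in these values was not tested. The interaction for Grm2 in the vHipp was 1.38 (SE 1.14, adjusted p = 0.637).

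Grm2 varied with the dentate markers across single vHipp libraries. Prox1, a transcription factor gene of dentate granule cells, left a gap between 12 libraries at 9.73 to 25.9 CPM and 27 libraries at 51.2 to 217 CPM, a split made after its values were seen. Grm2 averaged 6.19 ± 3.36 CPM in the low Prox1 libraries and 55.8 ± 27.4 CPM in the others. Grm8 averaged 2.47 ± 1.501 CPM and 7.67 ± 3.84 CPM in the same order, Grm4 6.90 ± 1.51 CPM and 12.7 ± 4.76 CPM, and Grm3 27.4 ± 3.55 CPM and 37.4 ± 5.73 CPM. Grm5, at 286 ± 44.05 CPM and 299.8 ± 54.6 CPM, and Grm7, at 56.8 ± 8.998 CPM and 58.0 ± 6.29 CPM, differed by less than their spread. The low Prox1 libraries were 4 of 7 in SC, 3 of 6 in CS, 3 of 7 in S24, 1 of 5 in CC, 1 of 8 in C24 and 0 of 6 in SS.

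**Figure D4:**
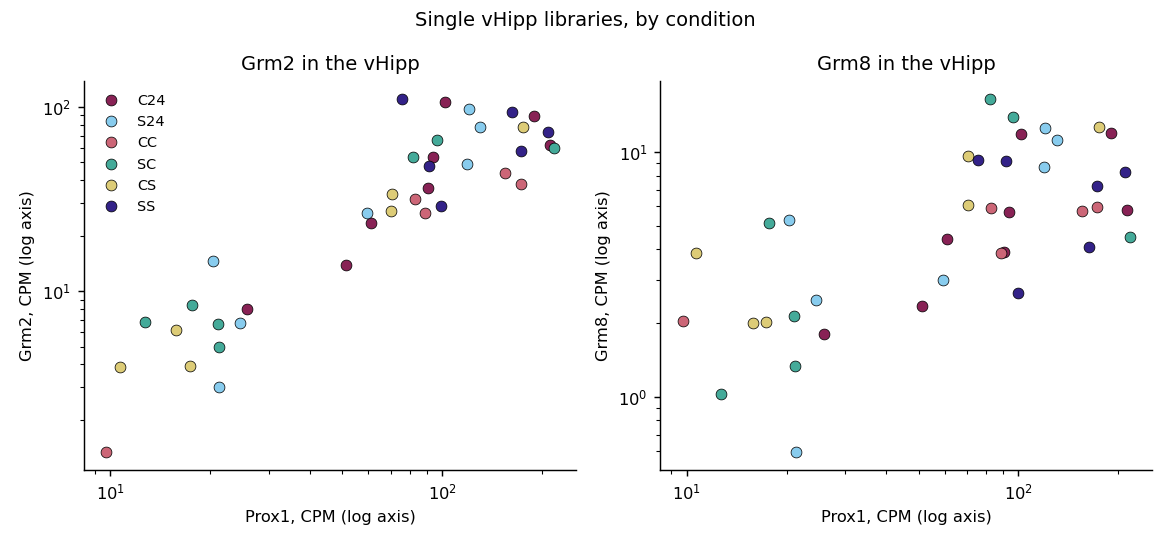
Grm2 (left) and Grm8 (right) against Prox1 in single vHipp libraries, in CPM on log axes, coloured by condition. The 12 libraries with Prox1 up to 25.9 CPM have Grm2 at or under 14.5 CPM, and 0 of the 6 SS libraries is among them.

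Within the high Prox1 libraries, Grm2 rose with the mean log2 level of the 3 dentate markers Prox1, C1ql2 and Dsp (Pearson r = 0.73, permutation p = 4e-05, Spearman rho = 0.72, permutation p = 4e-05, n = 27, adjusted p = 0.0001 for each over 18 relations). Without the 2 libraries farthest from the median r was 0.67, and it was 0.87 in the 11 libraries of 24 h and 0.62 in the 16 of 30 d. In the 12 low Prox1 libraries the relation of Grm2 was not called (r = 0.36, permutation p = 0.259, adjusted p = 0.476), while that of Grm8 was (r = 0.75, permutation p = 0.00523, adjusted p = 0.0157; rho = 0.76, permutation p = 0.0056, adjusted p = 0.0168; r = 0.61 without the 2 farthest and 0.91 in the 8 libraries of 30 d, with 4 at 24 h, too few for a value). Among those 12 libraries, Dsp ranged from 0.291 to 27.0 CPM, Prox1 from 9.73 to 25.9 CPM and C1ql2 from 5.10 to 21.1 CPM. Grm8 was highest in Hipp-182 (5.27 CPM) and Hipp-043 (5.12 CPM), with Prox1 at 20.4 and 17.7 CPM. Their choroid plexus and ependyma markers summed to 888.67 and 1257.5 CPM. Hipp-183, with the highest Prox1 of the set (25.9 CPM), had 1.80 CPM of Grm8. The relation to each marker alone was not tested. The 2-sided tests used 100000 permutations. The other 9 relations of dentate markers were not called. They were those of Grm3, Grm4, Grm5 and Grm7 in both sets and of Grm8 in the high Prox1 set.

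In the BLA, 4 members moved with the mean log2 level of 6 striatal projection neuron markers over 38 libraries. Grm4 had r = 0.87 (rho = 0.85), Grm3 r = 0.70 (rho = 0.69), Grm5 r = 0.67 (rho = 0.67) and Grm2 r = -0.72 (rho = -0.76), with a permutation p of 1e-05, the smallest that 100000 permutations give, for each value except the r of Grm5, at 4e-05. Adjusted over the 18 relations, these became 6e-05 (0.0001 for Grm5) for r and 4e-05 for rho. Without the 2 farthest libraries r was 0.84 for Grm4, 0.80 for Grm3, 0.63 for Grm5 and -0.77 for Grm2. Within the 13 libraries of 24 h and the 25 of 30 d, r was 0.91 and 0.78 for Grm4, 0.60 and 0.60 for Grm5, 0.31 and 0.79 for Grm3 and -0.41 and -0.72 for Grm2. Grm7 (r = 0.18, permutation p = 0.28, adjusted p = 0.476) and Grm8 (r = 0.08, permutation p = 0.632, adjusted p = 0.743) were not called, and their r had opposite signs at 24 h and 30 d (0.77 and -0.15 for Grm7, 0.60 and -0.40 for Grm8).

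The 30 d groups were also set against the 24 h groups with the same self-administered solution (SS against S24, CS against C24). These pairs share no library. They differ in withdrawal time, and also in age, in the injection 1 h before death, and in the range of mouse numbers, which do not overlap, and these cannot be told apart. Over the 6 regions, Grm4 rose by 0.39 in SS (SE 0.0755, adjusted p = 1.0e-05) and by 0.35 in CS (SE 0.0809, adjusted p = 0.00014), and Grm3 by 0.23 in SS (SE 0.0558, adjusted p = 0.000321) and by 0.18 in CS (SE 0.0605, adjusted p = 0.00989). Both calls, 2 of 6 members or 33.3%, stood against 31.6% of all genes in SS against S24 and 36.4% in CS against C24, a share near the background. The Grm3 call in CS was lost without the C24 mouse of library Hipp-214 (0.14, adjusted p = 0.0589) and with 1 mean per mouse (0.18, adjusted p = 0.0576). With 1 mean per mouse, Grm2 was called lower in CS (-0.44, adjusted p = 0.0301). The edgeR differences of Grm2 in CS, of -0.95 to 0.07, were positive in 3 regions and negative in 3. In the vHipp, 3 of 6 CS libraries and 1 of 8 C24 libraries were low in the dentate marker Prox1. The part of these libraries in the Grm2 call was not tested.

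Per mouse, the log2 deviation of Grm4 from its region means averaged 0.17 ± 0.145 in SS (8 mice) and -0.21 ± 0.106 in S24 (8 mice). The SS mice ran from 0.00 to 0.36 and the S24 mice from -0.31 to -0.05, without overlap. The share of all genes without overlap between these mice was not counted. The deviation of Grm4 averaged 0.14 ± 0.119 in CS (6 mice) and -0.21 ± 0.19 in C24 (8 mice). Their ranges of 0.04 to 0.31 and -0.57 to 0.06 overlapped. Grm3 averaged 0.12 ± 0.16 in SS and -0.11 ± 0.191 in S24, and 0.07 ± 0.0635 in CS and -0.11 ± 0.137 in C24, with overlap in both. Grm5, Grm7 and Grm8 were not called over the 6 regions in either comparison, with log2 differences of -0.01 to 0.15, nor was Grm2, at 0.07 in SS and -0.40 in CS.

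In single regions, 6 of 36 tests were called in SS against S24 and 5 of 36 in CS against C24. Over all genes and regions, 9.45% and 10.1% of tests were called in the same order. The share of all genes whose libraries separate between these groups was not counted, so the separations given for single genes have no background. Grm4 in the PFC ran from 20.7 to 29.6 CPM in SS with a median of 26.3 CPM (n = 7), and from 14.1 to 18.0 CPM in S24 with a median of 17.4 CPM (n = 7). All 7 SS libraries lay above all S24 libraries, and Grm4 rose by 0.59 in SS (SE 0.121, adjusted p = 0.0009). In CS it had 20.2, 20.7, 22.1, 27.7 and 39.5 CPM, against 16.1 to 19.4 CPM in C24 with a median of 17.8 CPM (n = 8), again without overlap, and rose by 0.55 (SE 0.127, adjusted p = 0.00315), or by 0.35 (adjusted p = 0.0355) without library PFC-091, the highest.

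Grm4 in the BLA ran from 32.7 to 53.1 CPM in SS with a median of 46.7 CPM (n = 7), and from 16.7 to 33.7 CPM in S24 with a median of 26.8 CPM (n = 7). It rose by 0.76 (SE 0.204, adjusted p = 0.00952), with 6 of 7 SS libraries above every S24 library. In CS it had 24.8, 39.7, 48.5, 50.1 and 57.7 CPM, against 18.5 to 35.2 CPM in C24 with a median of 25.2 CPM (n = 6), and rose by 0.77 (SE 0.229, adjusted p = 0.0272). The call in CS was lost without library BLA-014 (0.73, adjusted p = 0.0576), BLA-072 (0.74, adjusted p = 0.0691) or BLA-151 (0.66, adjusted p = 0.113), and without the filter on low counts (0.79, adjusted p = 0.0602).

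Grm4 in the CPu ran from 107.7 to 144.7 CPM in SS with a median of 124 CPM (n = 7), and from 92.7 to 120.5 CPM in S24 with a median of 101 CPM (n = 8), and rose by 0.29 (SE 0.0701, adjusted p = 0.00287). In CS it ran from 85.3 to 135 CPM with a median of 126 CPM (n = 6), and in C24 from 90.5 to 109 CPM with a median of 99.8 CPM (n = 8), and rose by 0.28 (SE 0.073, adjusted p = 0.00393). Of the 6 CS libraries, 5 lay above every C24 library and the other, Cpu-151, below all of them. Grm3 in the CPu averaged 105.7 ± 12.04 CPM in SS and 86.0 ± 13.9 CPM in S24, and rose by 0.31 (SE 0.092, adjusted p = 0.0171), with 5 of 7 SS libraries above every S24 library. It averaged 106 ± 12.1 CPM in CS and 84.98 ± 11.3 CPM in C24, and rose by 0.33 (SE 0.0957, adjusted p = 0.00997), with 4 of 6 CS libraries above every C24 library.

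Grm2 in the PFC went the other way. It ran from 41.7 to 63.1 CPM in SS with a median of 49.2 CPM (n = 7), and from 54.3 to 83.8 CPM in S24 with a median of 65.5 CPM (n = 7), and fell by 0.46 on the log2 scale (SE 0.118, adjusted p = 0.00709), with 6 of 7 SS libraries below every S24 library. In CS it had 28.3, 41.3, 47.2, 50.02 and 51.3 CPM, against 49.4 to 84.3 CPM in C24 with a median of 57.1 CPM (n = 8), and fell by 0.47 (SE 0.128, adjusted p = 0.0119), or by 0.34 without library PFC-091 (adjusted p = 0.0804, not called). Grm8 in the BLA averaged 33.1 ± 5.21 CPM in SS and 24.5 ± 2.16 CPM in S24 (n = 7 each) and rose by 0.41 (SE 0.12, adjusted p = 0.0167), with 6 of 7 SS libraries above every S24 library. It did not in CS, with 25.8 ± 5.03 CPM, against 26.8 ± 5.23 CPM in C24 (log2 difference -0.07, SE 0.136, adjusted p = 0.808), and the difference between these contrasts was not tested.

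**Figure D5:**
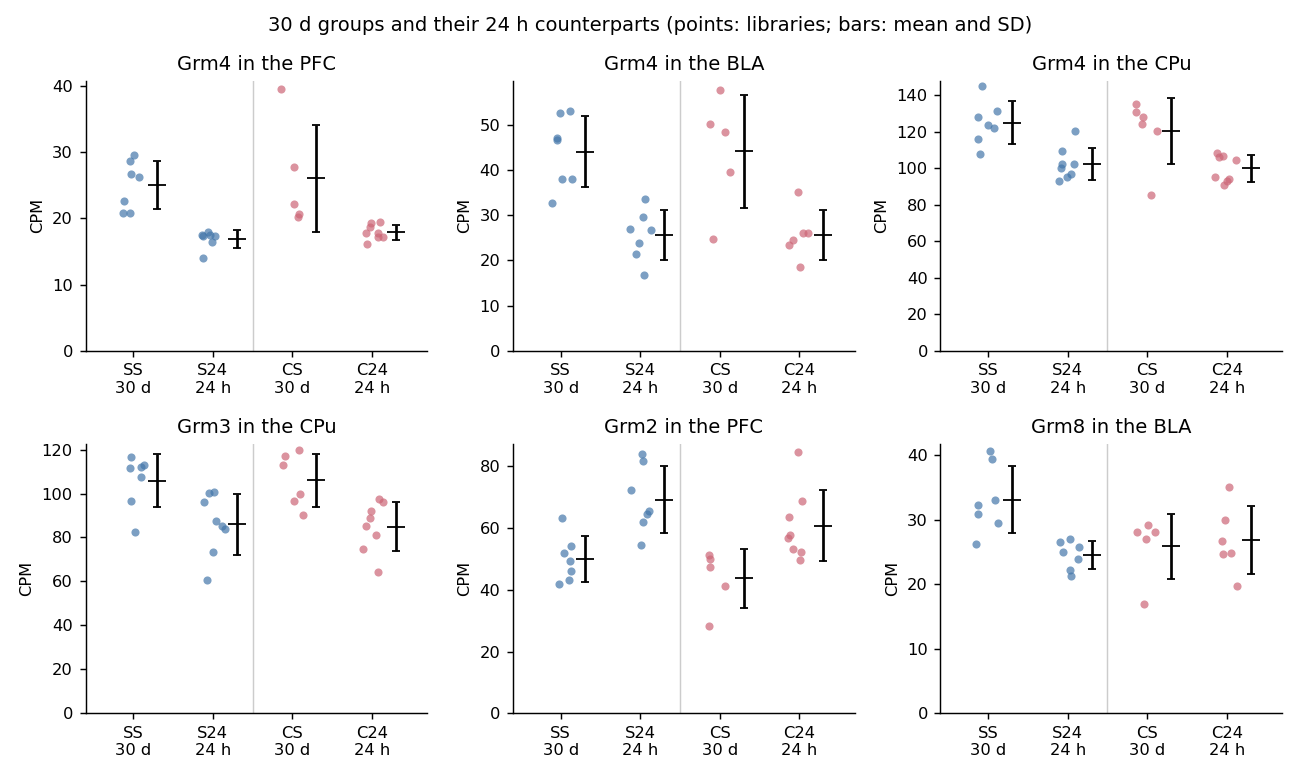
CPM in single libraries (points; blue after saline, red after cocaine self-administration) with mean and SD for the genes and regions called between 30 d and 24 h. Grm4 in the PFC runs from 20.7 to 29.6 CPM in SS and from 14.1 to 18.0 CPM in S24, and Grm2 in the PFC is lower in SS and CS than in S24 and C24.

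The background shares for these calls differed by region. Of all genes, edgeR called 16.7% in the BLA, 16.9% in the CPu, 3.79% in the NAc, 14.3% in the PFC, 2.72% in the vHipp and 2.51% in the VTA in SS against S24. In CS against C24 it called 9.72% in the BLA, 22.7% in the CPu, 8.83% in the NAc, 11.3% in the PFC, 4.59% in the vHipp and 3.99% in the VTA. The members called were 2 of 6 (33.3%) in the CPu and in the PFC in both comparisons, 2 of 6 in SS and 1 of 6 (16.7%) in CS in the BLA, and 0 of 6 in the NAc, the vHipp and the VTA. With 6 genes these counts say little beyond the genes named.

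Other tissue markers moved with these groups. In the BLA the 6 striatal projection neuron markers had a median log2 difference of 1.43 in SS against S24 (3 called higher) and 1.51 in CS against C24 (0 called), and their sum averaged 763 CPM in SS (193.95 to 1279.5) and 286 CPM in S24 (137 to 525), and 929 CPM in CS (134 to 1641) and 332 CPM in C24 (139.6 to 735). In the PFC the median was 0.79 in SS and 0.89 in CS with 0 of 6 called in each, and the sum averaged 248 CPM in SS (142.57 to 567) and 146 CPM in S24 (133 to 165), and 361 CPM in CS (137 to 980.5) and 202 CPM in C24 (132 to 385). In the CPu the medians were 0.03 and -0.02, with 0 of 6 called. In SS against S24, 4 of 8 astrocyte markers were lower in the BLA (median -0.39), and 7 oligodendrocyte markers had a median of 1.07 in the PFC with 1 called higher, against 0.03 and -0.17 for these lists in CS against C24. All 5 blood cell markers were lower over the 6 regions in both comparisons, with medians of -1.19 in SS and -1.21 in CS. No marker of these lists was at 0 in any of these groups. Their part in the Grm2, Grm4 and Grm8 values of the BLA and the PFC was not tested.

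A limma F test compared the effects on each gene between the 6 regions. Grm2 was called in SS against S24 (F = 3.99, adjusted p = 0.0332), where 7.64% of all genes were. The edgeR log2 differences of single regions were -0.46 in the PFC, -0.26 in the CPu, -0.20 in the BLA, -0.16 in the VTA, 0.11 in the NAc and 0.81 in the vHipp. In the vHipp the low Prox1 libraries were 3 of 7 in S24 and 0 of 6 in SS. Grm2 averaged 6.19 CPM in the low Prox1 libraries and 55.8 CPM in the high Prox1 ones. The part of this split in the F test was not tested. Grm2 was not called in CS against C24 (adjusted p = 0.749), where 0.502% of all genes were. Grm4 missed the threshold in SS against S24 (F = 3.20, adjusted p = 0.08). Its edgeR differences were positive in 6 of 6 regions in both comparisons. They ran from 0.01 in the VTA to 0.76 in the BLA in SS and from 0.18 in the vHipp to 0.77 in the BLA in CS.

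The partners of these receptors gave a wider view of the same comparisons. A list of 45 genes held 14 scaffold and binding proteins, 6 genes of Gq and 10 of Gi/o signalling, 6 of desensitisation, and 9 of the supply and removal of glutamate and of NAAG, a peptide agonist of group II receptors. None was called in any cocaine contrast, over the 6 regions or in the 270 regional tests of each. The smallest adjusted p over the 6 regions was that of Naalad2, a NAAG peptidase gene, in C24 against S24 (0.0937).

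Over the 6 regions, 10 of the 45 rose and 5 fell in SS against S24 and 14 rose and 3 fell in CS against C24. That is 22.2% higher and 11.1% lower in SS, where 15.01% of all genes were higher and 16.6% lower, and 31.1% higher and 6.67% lower in CS, where 17.8% of all genes were higher and 18.6% lower. The median log2 difference of the list was 0.08 in SS and 0.06 in CS, against -0.014 and -0.007 for all genes. Homer1, which tethers group I receptors at the postsynaptic density and has a short isoform induced by activity, rose by 0.67 in SS (SE 0.0752, adjusted p = 3.35e-14) and by 0.85 in CS (SE 0.0817, adjusted p = 2.17e-18). In the PFC it averaged 396 ± 121 CPM in SS and 169 ± 39.2 CPM in S24 (n = 7 each), and in the CPu 451 ± 63.0 CPM in SS (n = 7) and 276 ± 50.4 CPM in S24 (n = 8). Counts per gene do not separate its isoforms. Rgs2, which speeds the shut-off of Gq, rose by 0.33 in SS and 0.38 in CS, and Shank2, a postsynaptic scaffold that Homer proteins bind, by 0.23 in both. Glul, the glutamine synthetase of astrocytes, rose by 0.11 in SS and 0.15 in CS, and Adcy3, Adcy5, Shank3 and Gnao1 rose in both as well, by 0.06 to 0.18. Rimklb, a NAAG synthetase gene, fell by 0.15 in both.

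Other genes passed over the 6 regions in 1 of the comparisons. Slc7a11, the cystine-glutamate exchanger, rose by 0.41 in SS (SE 0.0944, adjusted p = 0.00021) together with Naalad2 (0.23), while Dlgap1, Gna11, Grk3 and Rimkla fell by 0.07 to 0.14. In CS, Itpr1 (0.23), Homer2 (0.22), Rgs4 (0.22), Folh1 (0.20), Plcb4 (0.18) and Gnaq (0.12) rose, and Grip1 (-0.13) and Gnai2 (-0.09) fell. By edgeR in single regions, some of them also passed in the other comparison. Rimkla fell in CS in the CPu (-0.33) and the NAc (-0.25). Homer2 rose in SS in the PFC (0.29), and Itpr1 (0.72) and Rgs4 (0.53) rose in SS in the BLA. Whether SS and CS differ in these genes was not tested. In single regions, 21 of 270 tests were called higher and 6 lower in SS, and 16 higher and 5 lower in CS. The partners thus had 27 of 270 tests called in SS and 21 of 270 (7.78%) in CS, against 9.45% in SS and 10.1% in CS over all genes and regions.

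Among themselves, the 6 genes fell into 3 pairs by their log2 CPM across the 230 libraries, given as a description since regions, mice and depth are shared. On log2 CPM, Grm5 and Grm7 had r = 0.84, Grm3 and Grm4 r = 0.80, and Grm2 and Grm8 r = 0.71, while Grm2 and Grm4 had r = -0.68. On deviations from the means of each region and condition, Grm2 and Grm8 kept r = 0.71 and Grm5 and Grm7 had 0.56. Grm3 and Grm4, at 0.44, were then below Grm3 and Grm5 (0.49) and Grm2 and Grm4 (0.46). The sign for Grm2 and Grm4 thus turned once the group means were removed, but this r pools all regions. In the vHipp both genes were higher in the high Prox1 libraries (55.8 against 6.19 CPM for Grm2, 12.7 against 6.90 CPM for Grm4). In the BLA they went in opposite directions with the striatal projection neuron markers (r = -0.72 for Grm2 and 0.87 for Grm4).

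The genes most like each member were taken from 13556 genes with a mean of at least 1 CPM. Across libraries, Grm2 was most like C1ql3 (r = 0.952), Ncald and Pter, Grm3 most like Dlg1 (0.925), Tmod1 and Rps6ka3, and Grm4 most like Gnal, the striatal G protein gene (0.957), Kazn and Sertad4. Grm5 was most like Mef2a (0.965), Slk and Plppr4, Grm7 most like Shisa7 (0.92), Dlx5 and Ryr1, and Grm8 most like Garnl3 (0.869), Fxyd7 and Dpy19l1. On the deviations within region and condition, the closest were Ipcef1 for Grm2 (0.834), Gnal for Grm3 (0.688), Epha8 for Grm4 (0.737), Zfp644 for Grm5 (0.881), Ylpm1 for Grm7 (0.688) and Tshz2 for Grm8 (0.753), with Grm2 the third for Grm8 (0.705).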

How the data were processed

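The deposited file is a single table of raw counts per Ensembl gene and library. The tools that the submitters' processing notes name are limma and HTSeq, and the build is mm10. The aligner, annotation and strand setting are not given in the sources used here. Per the labels' protocols, ribosomal RNA was depleted before a ScriptSeq library, while the labels' molecule field names polyA RNA. Symbols, positions and exon lengths came from GENCODE M21, which named 98.0% of the IDs, and promoters from RefSeq. Depth was 11866570 to 42135683 counts per library.

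The 6 members, the partner and marker lists and the contrasts were chosen with earlier results of these data known. Named were all members in every region, each called member and region or else those of smallest p, called partner genes, and the 3 most similar genes. Each region was fitted with edgeR 4.0.16 (robust quasi-likelihood F test, filterByExpr at 10 counts, TMM scaling, 6 conditions); effects over regions, region pairs and the F test of regional differences came from limma 3.58.1 voom on 36 groups with the mouse as a block (duplicateCorrelation). P-values were adjusted by Benjamini-Hochberg over all genes tested (threshold 0.05), and the scripts were tested on simulated data. CPM use TMM factors of all libraries. The title number was read as the mouse; deviations of libraries with the same number had a median correlation of 0.077 over 486 pairs (213 above 0.1), against -0.011 over 3228 pairs of other mice, and the consensus correlation was 0.0398, kept in the alternatives other than the fit without the block. Alternatives were DESeq2 1.42.0, limma voom, other scalings, no filter, left-out libraries and mice, leaving out 21 libraries with over 1 CPM of the predicted gene Gm20594, no block and 1 mean per mouse; library totals and leaving out libraries that stood apart were chosen after seeing the data. Correlations used log2(CPM + 0.5).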

Additional observations from a re-analysis of the deposited data

Results flagged for a closer look

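A single library lay far from the rest of its group in 19 of the 210 groups of 4 to 10 libraries tested; chance gives about 1 in 20. Some fell on the same mice. The CC library VTA-145 had the highest values of Grm3 (53.4 CPM against 39.5 to 43.2 in the others), Grm4 (42.99 against 29.9 to 32.8) and Grm8 (17.1 against 9.41 to 11.3), with 2046 CPM of summed dopamine neuron markers against 3789.9 to 6234 in the others. The CS library Cpu-151 had 4.29 CPM of Grm2 and 85.3 CPM of Grm4, against 0.618 to 1.54 and 120.3 to 135 in the others, with striatal markers at 3245 CPM (others 5138 to 5989) and excitatory neuron markers at 202.56 CPM (others 6.25 to 10.6), and BLA-151 of the same mouse had 16.9 CPM of Grm8 against 27.0 to 29.2. Mouse 083 of SC had 19.8 CPM of Grm2 in the BLA (others 38.8 to 52.96) and 3.08 CPM in the CPu (others 1.09 to 1.29), with excitatory neuron markers at 330 CPM in the BLA (others 769 to 1395) and 95.2 CPM in the CPu (others 8.10 to 62.8). Mouse 091 of CS had 87.7 CPM of Grm3 in the PFC (others 63.4 to 68.8), where its striatal markers summed to 980.5 CPM (others 137 to 307), and 8.35 CPM of Grm8 in the CPu (others 4.71 to 5.95). The part of the tissue markers in these values was not tested.

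The other such libraries were single values. Grm4 had 66.4 CPM in NAc-185 and 14.1 CPM in PFC-204, both S24, 32.2 CPM in PFC-085 (CC), 24.8 CPM in Hipp-162 (SS, vHipp) and 22.3 CPM in VTA-223 (C24). Grm5 had 181 CPM in PFC-053 (CC) and 257 CPM in Hipp-113 (SC), Grm7 had 82.8 CPM in BLA-105 (SC), and Grm8 had 9.66 CPM in NAc-094 (SS). The effect of SS against S24 on Grm2 differed between regions (limma F test, adjusted p = 0.0332). In the vHipp, 3 of 7 S24 libraries and 0 of 6 SS libraries were low in Prox1. The part of this in the result was not tested.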

How the results depend on the processing

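With 84 of 90 member tests called between region pairs, the count was 83 to 85 under 7 alternatives: 84 with no replicate block and 83 with the mouse as a fixed replicate block. The difference of Grm7 between BLA and CPu, not called at -0.02, was 0.00 without the filter and 0.10 with library totals (adjusted p = 0.00703), a scaling that moved the median of all genes by 0.12 in that pair. The Grm7 difference between PFC and vHipp was called without libraries that stood apart (-0.09, adjusted p = 0.0303). Over the 6 regions, 2 members were called in SS against S24 and in CS against C24 under each of 7 alternatives. These were Grm3 and Grm4 except with 1 mean per mouse in CS, where Grm2 (-0.44, adjusted p = 0.0301) passed and Grm3 (0.18, adjusted p = 0.0576) did not. With no replicate block, the differences in SS and CS were 0.39 and 0.36 for Grm4 and 0.24 and 0.18 for Grm3; leaving out each mouse gave 2 in SS and 1 to 2 in CS. The regional counts were 6 to 7 in SS and 4 to 5 in CS. Counts of members called in the cocaine contrasts were 0 under every alternative run. All 36 regional levels moved by less than 1 SD under other scalings. Precision is limited most where single libraries of a group spread widely, as for Grm2 in the vHipp, where the SE of CS against SS was 0.817.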
